A study of Homo sapiens with 2 samples.

Results

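Peaks of N6-methyladenosine (m6A) in genes that carry no input level were collected from Huh-7, a cell line established from a liver tumour (hepatocellular carcinoma). The series holds 1 IP library, made from RNA fragments that an m6A antibody captured, and 1 input library, made without that capture, both from untreated wild-type cells. The authors' peak list gives 49746 regions where IP reads exceeded input reads, and their gene table gives the input level of 25105 genes in FPKM, which scales fragments to gene length and library size. A peak was included when its gene ID stood in the peak list but not in the gene table. The rule kept 1600 peaks (3.22% of all peaks, 95% exact binomial interval 3.06 to 3.38), in 1273 of the 15890 genes with a peak (8.01%, 7.59 to 8.44). The remaining 48070 peaks lay in 14617 genes with an input level, called listed genes here, and 76 peaks had no gene. Every value in the gene table was above 0, down to 1.78e-07 FPKM, so a missing gene is one the table does not hold. Whether such a gene had a level of 0 in the input cannot be told. The reason for its absence was not given in the sources used here. With 1 library of each kind there was no replicate check and no test between groups, and the intervals cover counting error over peaks only. Read depth is unknown.

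m6A is a methyl group on adenosines inside RNA, placed on nascent transcripts mostly within the DRACH sequence context and frequent near stop codons and in 3' UTRs of mRNA. Long non-coding RNAs (lncRNAs) carry it as well. Many lncRNA genes are antisense, which means that they lie on the strand opposite a coding gene and share bases with it. Readthrough genes are annotated transcripts that join exons of neighbouring genes on 1 strand, so their exons are also exons of the single genes. For both kinds, reads can be hard to give to 1 gene. The libraries mark the strand of the RNA, per the labels' protocols, but its use in peak calling and gene counting was not given in the sources used here. Without strand, reads from a gene and from its partner on the other strand cannot be told apart.

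The input library held liver transcripts. All 12 hepatocyte markers were listed, between 10.5 and 2380 FPKM with a median of 227. Of markers of other cell types, 1 of 6 endothelial, 4 of 7 leukocyte, 8 of 8 fibroblast and stellate and 6 of 6 bile duct genes were listed, with medians of 1.33, 1.33, 0.582 and 6.64 FPKM. No marker on these lists was among the 1273 genes.

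Few of the 1600 peaks have a sequence that can be shown here. The search against RefSeq promoter windows (250 bases before to 50 after a gene start, build GRCh38.p14) did not cover every chromosome. Of the peaks searched, 217 shared a base with a window, and 5 peaks in non-coding genes lay wholly inside one. Of 19057 genes matched by symbol, 19051 overlapped their GRCh38.p14 span, and 67.2% had the same start or end to the base. The 3 sequences below show what such short peaks in antisense or divergent transcripts look like on the strand of the peak's own gene. Capitals mark DRACH matches (any base but C, then A or G, then A, then C, then any base but G), searched on the strand of the peak alone. Neighbouring matches can share bases.
STARD13-AS, chr13:33277410-33277584, plus strand: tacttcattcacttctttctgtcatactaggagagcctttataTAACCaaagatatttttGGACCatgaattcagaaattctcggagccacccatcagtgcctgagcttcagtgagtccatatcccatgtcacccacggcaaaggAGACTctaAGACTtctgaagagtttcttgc
AC009118, chr16:58392303-58392402, minus strand: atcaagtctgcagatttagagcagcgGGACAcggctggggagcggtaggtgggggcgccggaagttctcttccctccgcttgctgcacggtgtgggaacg
PPM1K-DT, chr4:88284707-88284917, plus strand: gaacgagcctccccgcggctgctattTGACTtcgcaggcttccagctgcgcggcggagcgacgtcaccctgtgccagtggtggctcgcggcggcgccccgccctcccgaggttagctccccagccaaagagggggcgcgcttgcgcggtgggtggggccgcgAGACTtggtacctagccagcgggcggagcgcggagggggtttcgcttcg

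The STARD13-AS stretch of 175 bases held 4 DRACH matches, and 89.1% of 35116 promoter windows of that length held at least 1. The AC009118 stretch of 100 bases held 1 match, against 73.8% of windows with one, and the PPM1K-DT stretch of 211 bases held 2, against 92.6%. A match at this frequency is a description of the letters. All 3 peaks were weak in the authors' deposited table, with log2 folds of 1.23 for STARD13-AS, 1.01 for AC009118 and 1.14 for PPM1K-DT and adjusted p-values of 0.0340, 0.0508 and 0.0463. Each of the 3 lay over a listed gene on the other strand, STARD13 at 1.64 FPKM, GINS3 at 1.76 FPKM and PPM1K at 1.78 FPKM. Of the peaks inside a window but not shown, OXCT1-AS1 lay opposite OXCT1 at 1.77 FPKM. AF129075 had no listed gene on the other strand.

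Long non-coding RNA genes made up most of the set. By the transcript type in the peak list, 700 of the 1273 genes were lncRNAs (55.0%, 52.2 to 57.7), 333 were protein-coding (26.2%, 23.8 to 28.7), 191 were pseudogenes (15.0%, 13.1 to 17.1), 29 awaited experimental support and 19 were small or structural RNAs. For 1 gene, PRB2, no transcript was given. Listed genes with a peak were 82.3% coding, 13.4% lncRNA and 3.37% pseudogenes. Symbols taken from genomic clones, such as AC008738, named 711 of the genes (55.9%). Names that end in AS with or without a number, which mark antisense RNAs, stood on 111 genes, readthrough descriptions on 30 others, LINC names on 29, and olfactory receptor names on 8. By gene, 1038 had a single peak (81.5%, 79.3 to 83.6), against 4029 of the listed genes (27.6%). RefSeq matched only 550 of the genes (43.2%), under the 80% needed, so a check of the classes against RefSeq types is void.

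The peaks lay mostly in non-coding exons. The region column placed 1097 in a non-coding exon (68.6%, 66.2 to 70.8), 292 in a 3' UTR (18.3%), 101 in a coding exon (6.31%), 64 in a 5' UTR (4.00%) and 44 in an intron (2.75%). In listed genes 50.3% of peaks lay in a 3' UTR, 21.2% in a coding exon and 9.68% in a non-coding exon. Within coding genes the make-up was closer. Of 501 peaks in coding genes without a level, 58.3% (53.8 to 62.6) lay in a 3' UTR, against 55.8% (55.4 to 56.3) in listed coding genes, and 20.2% lay in a coding exon.

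**Figure D1:**
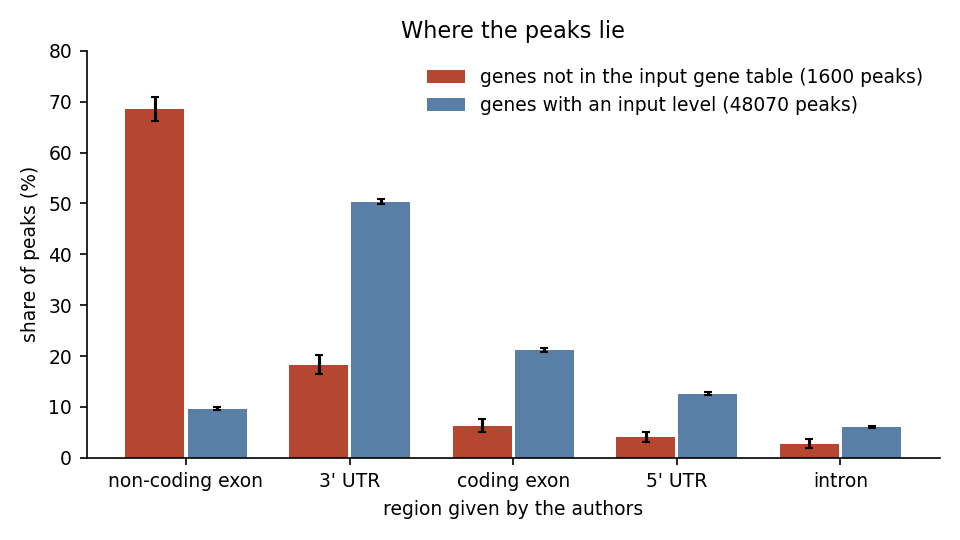
Share of peaks (%) in each region given by the authors, for the 1600 peaks in genes that the input gene table does not hold and the 48070 peaks in genes with an input level; bars start at 0 and lines are exact 95% binomial intervals. Non-coding exons held 68.6% against 9.68%, and 3' UTRs 18.3% against 50.3%.

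Folds and p-values come from the authors' deposited table and only describe peaks within that list. The fold holds input reads and the genes were chosen by the lack of an input level, so the folds were not tested. The median log2 fold was 1.56 over the 1600 peaks and 1.08 over peaks in listed genes. By class it was 1.46 for lncRNAs against 1.61 in listed lncRNAs, 1.59 against 1.04 for coding genes and 1.73 against 1.59 for pseudogenes, so the lncRNA values ran opposite to the pooled ones. At 2-fold or more stood 1290 peaks (80.6%), where 56.4% of all peaks in the list did, and at 4-fold or more stood 533 (33.3%), where 19.7% of all did. The 0.001 limit on the adjusted p was passed by 550 peaks (34.4%), where 44.1% of all peaks had one, and 502 (31.4%) passed both that p and 2-fold, where 31.5% of all did. A log2 fold of 6 or more stood on 51 peaks (3.19%), against 0.397% of peaks in listed genes and 48 of 815 (5.89%) in listed genes under 0.1 FPKM, and their adjusted p-values ran from 1.44e-06 to 0.00245. Peaks in listed genes under 0.1 FPKM had a median log2 fold of 1.70, those between 0.1 and 1 FPKM 2.02 and those at 10 FPKM or more 0.72. Just inside the table, 13 of 88 listed genes under 0.001 FPKM had a peak, 16 peaks in all with a median log2 fold of 1.05. The lowest were AL807752 at 4e-06 FPKM with a log2 fold of 1.06 and AC004542 at 5e-06 FPKM with 2.45, both lncRNAs.

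Most of the peaks lay over a listed gene on the other strand. Counted from first to last base, introns included, 1113 of 1600 peaks (69.6%, 67.2 to 71.8) shared bases with the span of a listed gene on the other strand alone. Another 129 (8.06%) did so on the same strand alone and 69 (4.31%) on both, while 289 (18.1%, 16.2 to 20.0) lay over none. Any overlap on the other strand was therefore found for 73.9% of these peaks (71.6 to 76.0), against 16.2% (15.9 to 16.6) of peaks in listed genes, where only other genes were counted. Overlap on the same strand was 12.4% against 8.46%, a direction that only coding genes had among the 3 largest classes. A gene's span holds its introns, so a shared base need not lie in an exon of the other gene.

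The kinds of gene differed in which strand was shared. Of 829 lncRNA peaks 88.1% (85.7 to 90.2) lay over a listed gene on the other strand and 2.05% over one on the same strand. Of 133 peaks in genes with an antisense name, 96.2% lay over a listed gene on the other strand. Of the 213 peaks in pseudogenes, copies of genes that have lost their function, 68.5% had one on the other strand and 2.82% on the same strand. Coding genes were split, with 51.5% (47.0 to 56.0) on the other strand and 33.1% (29.0 to 37.4) on the same strand. Listed genes of the same classes had lower shares on the other strand, 41.7% for lncRNAs, 23.3% for pseudogenes and 13.7% for coding genes. On the same strand listed genes stood at 8.22% for lncRNAs and 19.5% for pseudogenes, above the genes without a level, and at 8.19% for coding genes, below them.

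**Figure D2:**
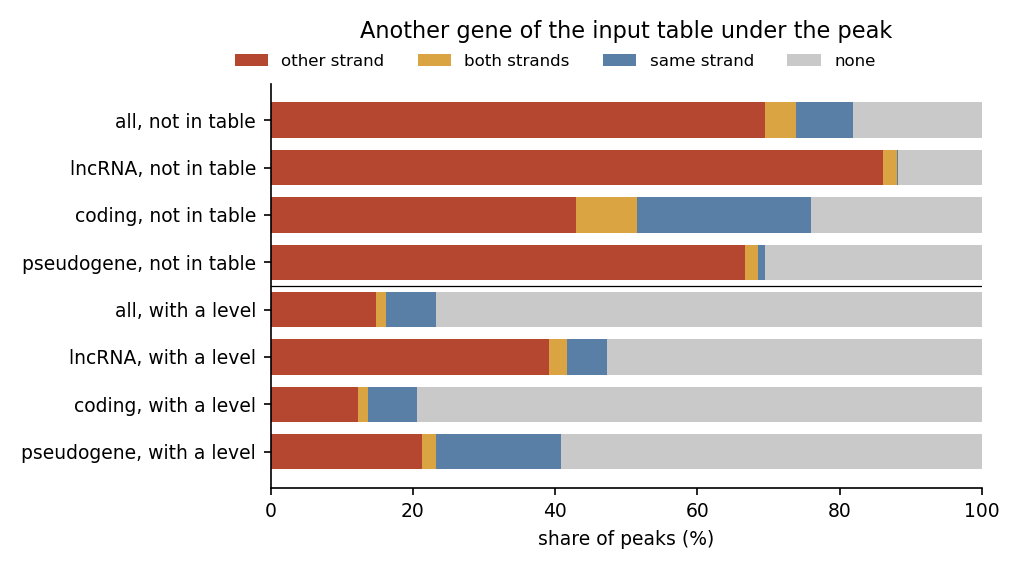
Share of peaks (%, stacked to 100) that lay over another gene of the input table on the other strand alone, on both strands, on the same strand alone or over none, for peaks in genes not in the table (upper 4 bars) and with a level (lower 4 bars). The lncRNA bar without a level is 86.1% other strand alone, and the coding bar holds the widest same-strand part, 24.6%.

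The share over the other strand followed the input level of the peak's own gene. It was 73.9% in genes without a level, 62.3% (58.9 to 65.7) in listed genes under 0.1 FPKM, 27.5% (26.3 to 28.7) between 0.1 and 1 FPKM, 14.6% between 1 and 10 FPKM and 12.0% at 10 FPKM or more. Within lncRNAs the same bins read 88.1%, 82.3%, 43.7%, 30.8% and 24.1%. Within coding genes they read 51.5%, 42.9%, 18.5%, 13.5% and 11.8%. Pseudogenes went from 68.5% without a level to 17.7% between 1 and 10 FPKM, and the 56 pseudogene peaks at 10 FPKM or more stood at 28.6% (17.3 to 42.2). In each of these 3 classes the intervals of the first 2 bins overlapped, and over all peaks they did not.

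**Figure D3:**
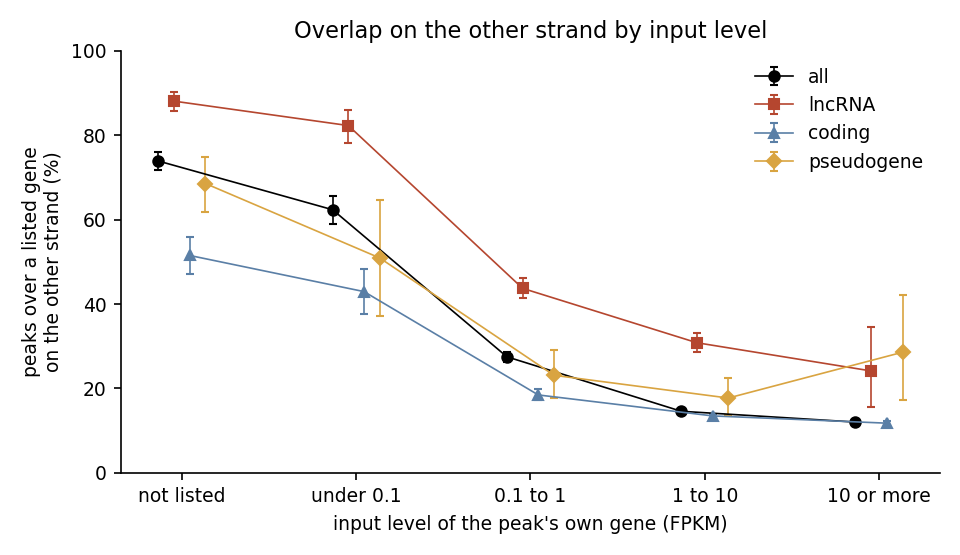
Share of peaks (%) over a listed gene on the other strand, by the input level in FPKM of the peak's own gene, for all peaks and for 3 gene classes; points are shares, vertical lines exact 95% binomial intervals, and joining lines guide the eye. The share for all peaks falls from 73.9% without a level to 12.0% at 10 FPKM or more.

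The genes under the peaks on the other strand were mostly at 1 FPKM or more in the input. The 1080 listed genes reached this way had a median of 3.72 FPKM, and 81.9% stood at 1 FPKM or more. That share was 54.3% over all 25105 listed genes and 76.5% over the 14617 listed genes with a peak, whose median was 3.44 FPKM. The 157 listed genes reached on the same strand had a median of 1.42 FPKM. The highest on the other strand was MALAT1, an abundant nuclear lncRNA, at 360 FPKM under a peak of AP000769 with a log2 fold of 1.72. CEBPA, a transcription factor that maintains liver cell identity, followed at 140 FPKM under AC008738. CCT4, a subunit of the cytosolic chaperonin, stood at 106 FPKM under AC107081, CTSD, a lysosomal protease, at 91.3 FPKM under AC068580, MAN1A1 at 89.8 FPKM under AL022722 and LYZ, lysozyme, at 83.8 FPKM under AC020656. On the same strand the highest were SNORD3D, a small nucleolar RNA, at 425 FPKM under AC007952, and IGF2, a fetal growth factor, at 412 FPKM under INS-IGF2.

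A listed gene often had a peak of its own at the same place. On the other strand 719 of the 1600 peaks (44.9%, 42.5 to 47.4) shared bases with a peak of a listed gene, against 9.03% of peaks in listed genes, while 21 (1.31%) did so on the same strand. By the level of the peak's own gene, the share on the other strand was 44.2% (40.7 to 47.7) in listed genes under 0.1 FPKM, 16.4% between 0.1 and 1 FPKM and 6.48% at 10 FPKM or more. Within lncRNAs it was 54.4% (50.9 to 57.8) without a level and 61.1% (56.0 to 66.1) in listed genes under 0.1 FPKM. In both comparisons the intervals of genes without a level and of listed genes under 0.1 FPKM overlapped. The 719 faced 918 different listed peaks, of which 53.1% lay in a 3' UTR, where 50.3% of all listed-gene peaks did. With the facing peak that shared the most bases taken for each, the median log2 fold was 1.58 for the gene without a level and 1.50 for the listed gene. The fold was higher in the gene without a level in 412 pairs (57.3%), and its adjusted p was the smaller in 198 pairs (27.5%). Across the 719 pairs the log2 folds had a Pearson r of 0.55 and a Spearman rho of 0.59, a description of pairs that share bases of the genome and both libraries. In 21 pairs the shared bases made up at least 80% of the stretch that both peaks cover, a limit chosen with the values known. In these the median absolute difference of the log2 folds was 0.25, against 0.42 in the other 698 pairs.

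**Figure D4:**
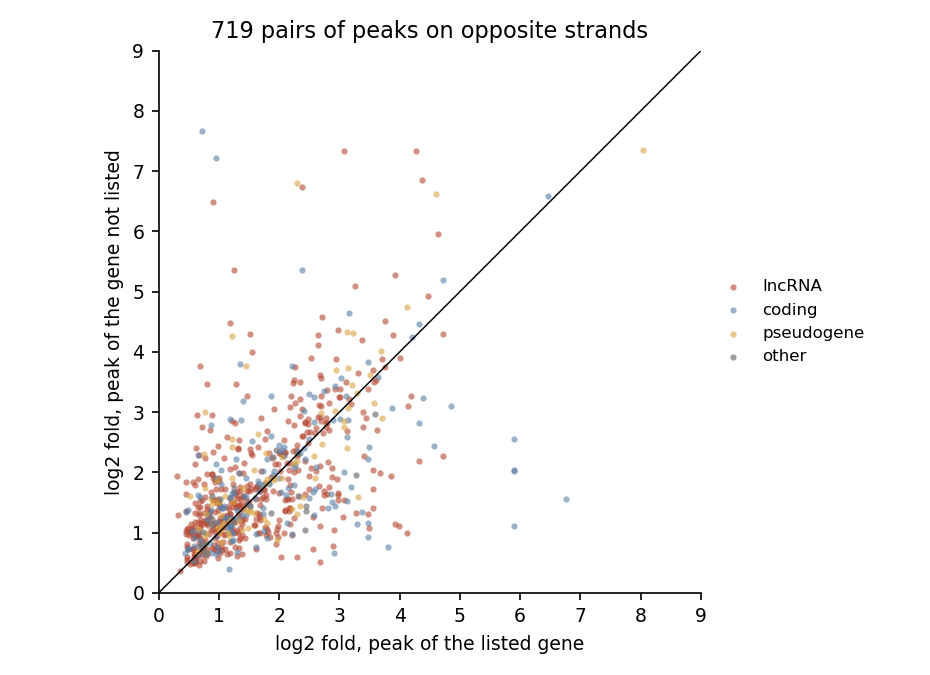
The authors' log2 fold of each of 719 peaks in genes without a level (vertical axis) against that of the listed gene's peak that shares bases with it on the other strand (horizontal axis), coloured by gene class; the line marks equal folds. Points lie on both sides of the line, 57.3% above it.

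Single pairs show how alike and how unlike the strands were. The AC008738 peak at chromosome 19 from 33301279 to 33301933 had a log2 fold of 5.95, and the 3' UTR peak of CEBPA from 33300234 to 33301758 had 4.64, with 480 bases shared. AP000879 faced FADD, the adaptor of death receptors, with 3.66 against 3.31. AC008914 faced IL6ST, the signalling chain of interleukin-6 receptors, with 3.51 against 3.11. DDIT4-AS1 faced DDIT4, a stress-induced inhibitor of mTORC1, with 3.25 against 3.01. In all 4 pairs the gene without a level had the higher fold.

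Other pairs were closer or went the other way. AC125494 and ZNF384 had log2 folds of 1.70 and 1.68 with adjusted p-values of 3.45e-56 and 9.51e-57. ABHD16B, a coding gene, and AL118506 had 2.33 and 2.34. CHMP1B-AS1 had 1.54 where CHMP1B, a subunit of the membrane-cutting ESCRT-III complex, had 2.98, with 1060 bases shared. C6orf47-AS1 had 1.64 where C6orf47 had 2.79. The listed gene had the higher fold in the last 3 of these 4 pairs.

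An adjusted p under 1e-20 stood on 100 peaks (6.25%), where 13.9% of all peaks had one, and 96 of these lay over a listed gene. Of the 100, 80 had one on the other strand and 30 on the same strand, both counts including 14 on both, and 4 had none. The authors' table printed an adjusted p of 0 for 5 peaks, in AP000879, AC008738, AL121758, IL4I1 and AC005943. The smallest above 0 belonged to AC008914 (1.87e-294), AP001458 (2.74e-286) and AL158151 (1.20e-227). AP001458, on the same strand as INTS5, an Integrator subunit at 14.2 FPKM, had a log2 fold of 2.61 in a 3' UTR. AL121758 had 2.64 in a 3' UTR over SRXN1, which encodes sulfiredoxin and stood at 21.6 FPKM. RAB11FIP1P1, a pseudogene on the X chromosome, had 4.02 opposite FTX, a lncRNA of the X-inactivation centre at 2.45 FPKM.

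The highest folds are given among peaks with an adjusted p under 0.001. AC090587, a lncRNA opposite STIM1 (the calcium sensor of the endoplasmic reticulum, 3.52 FPKM), led with a log2 fold of 7.81 and an adjusted p of 0.000249. HSPB9, a small heat shock protein of the testis, followed at 7.67 with an adjusted p of 0.000320, opposite a peak of AC099811. LRIT3, a membrane protein of retinal bipolar cells, stood at 7.55, PPIAP45 at 7.48, GUSBP5 at 7.45, AC015660 at 7.39, SNRPCP3 at 7.36 and SELPLG at 7.36. SELPLG encodes the P-selectin ligand of white blood cells. LRIT3, PPIAP45, AC015660 and SELPLG lay over no listed gene.

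Among coding genes, under the same limit on the adjusted p, GNG13, a G protein gamma subunit of taste and nerve cells, had a log2 fold of 7.22 in its 3' UTR opposite a peak of CHTF18. ST6GALNAC1, a sialyltransferase, stood at 7.10 and KCTD8 at 6.32, both over no listed gene. MRAP, which carries the corticotropin receptor to the cell surface in the adrenal gland, stood at 5.36 with an adjusted p of 6.29e-33 opposite URB1 at 6.58 FPKM. TXNDC2 had 5.21, AL158151 5.19 and CDH4 4.72.

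Peaks over no listed gene had the higher folds. Their median log2 fold was 2.18, against 1.46 for peaks over a listed gene on the other strand alone, 1.15 on the same strand alone and 1.40 on both. At a log2 fold of 6 or more stood 30 of the 289 (10.4%) and 15 of the 1113 (1.35%). The adjusted p was under 0.001 in 32.9% of the 289 and 33.1% of the 1113. The nearest listed gene of the 289 was a median of 7650 bases away, and 120 of them had one within 5000 bases, on the other strand in 95.

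**Figure D5:**
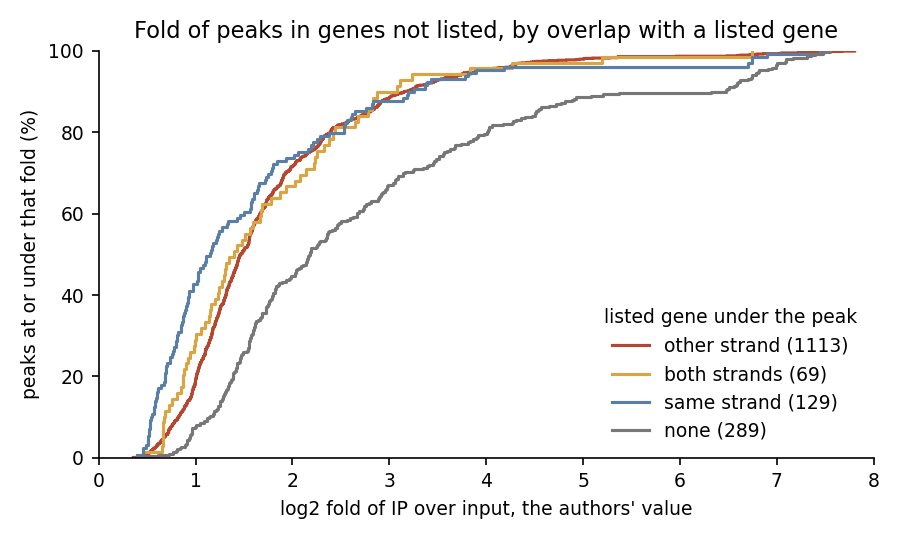
Cumulative share (%) of peaks in genes without a level at or under each log2 fold of IP over input, by where a listed gene lay under the peak, with the number of peaks in brackets. The curve for peaks over no listed gene lies to the right, with a median of 2.18 against 1.46 for the other strand alone.

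Genes with many peaks were few. KCNK12, a potassium channel subunit of the nervous system, had 8 peaks, all in its 3' UTR, with log2 folds from 0.95 to 1.81. AC087721 had 7, all over OIP5-AS1 on the same strand, a lncRNA at 8.73 FPKM, with 6 called intronic and log2 folds from 0.60 to 1.43. AC011287 had 7 and LINC02669 had 5, with no listed gene on either strand. AC073508 had 6, all over SMARCE1, a subunit of chromatin remodellers, on the same strand at 2.91 FPKM. Peaks of 1 gene share their source and are not replicates.

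Readthrough genes were the clearest case of overlap on the same strand. Their 30 genes held 46 peaks, and 41 peaks (89.1%) lay over a listed gene on the same strand. Of the 23 with a hyphenated symbol, 20 had a peak within a part gene that is itself listed. COMMD3-BMI1 had a 3' UTR peak with a log2 fold of 2.56 and an adjusted p of 3.39e-143 inside BMI1, a Polycomb protein at 7.96 FPKM, whose own strongest peak had 2.10. CHURC1-FNTB had 2.22 inside FNTB, a farnesyltransferase subunit at 2.86 FPKM with 1.20. ZNF625-ZNF20 had 3.08 inside ZNF20 at 0.887 FPKM, which had no peak of its own. INS-IGF2 had 0.40 inside IGF2, whose own strongest peak had 3.10. Another 3' UTR peak of INS-IGF2 had 3.77 with an adjusted p of 0.000679, outside IGF2 and opposite IGF2-AS. RPL17-C18orf32 had 0.68 over RPL17, a ribosomal protein at 72.0 FPKM with no peak of its own. The count for a shared exon can be split between such genes, so these folds are uncertain.

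Small RNA genes often had peaks much longer than themselves. The MIR135A1 peak ran over 9988 bases with a log2 fold of 2.25, opposite GLYCTK at 22.7 FPKM. For MIR181A2 the peak ran over 39878 bases with 1.20. It lay on the strand of its host MIR181A2HG at 1.58 FPKM and opposite NR6A1 at 17.5 FPKM. The MIR16-1 peak ran over 4011 bases with 0.88 and an adjusted p above 0.001, on the strand of DLEU2, its host gene at 1.62 FPKM. The MIR302B peak ran over 1167 bases with 1.18 and an adjusted p above 0.001, opposite LARP7. The mature miRNAs below, from RefSeq (GRCh38.p14), lie inside these peaks and show how small a part of each they are. Capitals mark the seed, bases 2 to 8.
hsa-miR-135a-5p: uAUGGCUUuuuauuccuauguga
hsa-miR-181a-5p: aACAUUCAacgcugucggugagu
hsa-miR-16-5p: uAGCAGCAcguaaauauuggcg
hsa-miR-302b-3p: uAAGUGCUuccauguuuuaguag

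These 4 seeds differ from each other. The longest such peak belonged to RNU7-90P, a pseudogene of the U7 small nuclear RNA, and ran over 124736 bases with a log2 fold of 2.37, opposite ZFHX3 at 7.54 FPKM. A peak of this extent covers introns, and which bases held the reads was not given in the sources used here. Of the 1600 peaks 255 (15.9%) ran over more than 5000 bases, against 17.3% of peaks in listed genes.

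Coding genes known from other tissues fell into several groups, chosen after the gene names were seen. Of all 501 peaks in coding genes without a level, 120 (24.0%) lay over no listed gene. A listed gene on the other strand lay under 51.5% of the 501, and 32.3% faced a peak of one there. Of 10 peaks in 8 genes of light sensing, 9 lay over no listed gene. GNAT1, the transducin of rods, had 3 peaks with log2 folds of 1.42, 1.76 and 2.24. The adjusted p was above 0.001 for the peak at 1.42 and 9.94e-09 for the one at 2.24. CNGB3, a channel subunit of cones, had 6.73, with an adjusted p above 0.001. Of 23 peaks in 16 genes of blood and immune cells, 8 lay over none. Among these were CD247 (7.00, adjusted p above 0.001), the zeta chain of the T cell receptor, and NLRC4 (3.47), an inflammasome sensor. This list is not complete, so its shares depend on the genes chosen. It left out HSH2D (hematopoietic SH2 domain containing), with a peak over RAB8A at 14.5 FPKM on the same strand. IL4I1 (interleukin 4 induced 1) was also left out, with a peak over NUP62 on the same strand and ATF5 on the other. Of 30 peaks in 12 genes of nerve cells 25 lay over a listed gene on the other strand, and 14 faced one of its peaks. DBH, the enzyme that makes noradrenaline, had 2.55 opposite DBH-AS1. Of 12 peaks in 8 olfactory receptor genes, 8 lay over none.

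Other groups were mixed. Of 11 peaks in 10 germ cell genes, 5 lay over none and 5 faced a peak of a listed gene on the other strand. Of these genes TSSK2, a kinase of sperm formation, and GAPDHS, the sperm form of a glycolytic enzyme, had 3.44 and 3.36, each opposite a listed gene with a peak. Of 12 peaks in 9 muscle and heart genes, 6 lay over none. NPPA, which encodes atrial natriuretic peptide, had 1.59 and 1.10, both opposite CLCN6 with a peak there. The NPPA peak at 1.10 had an adjusted p above 0.001.

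Liver genes were also present. KMO, an enzyme of tryptophan breakdown, had a log2 fold of 2.84 with an adjusted p of 5.29e-88 opposite OPN3 at 5.29 FPKM. NR1I3, the xenobiotic receptor CAR, had 2.45 opposite TOMM40L at 5.12 FPKM. CYP2A6, which oxidises nicotine, had 1.46 and 1.89, SDS, a serine dehydratase, 4.31 and OIT3 1.60 with an adjusted p of 1.64e-16, all 3 over no listed gene. IGF1 had 3 peaks between 0.87 and 1.62, all opposite LINC02456. IGFALS, which binds insulin-like growth factors in serum, had 3.18 over SPSB3 on the same strand. These 7 genes held 10 peaks, and only 3 of the peaks, in KMO, NR1I3 and OIT3, had an adjusted p under 0.001.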

How the data were processed

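Fragmented, rRNA-depleted RNA was captured with an m6A antibody, per the labels' protocols, whose text also mentions adipose tissue, while both titles name Huh-7. Per the submitters' processing notes, edgeR, StringTie, HOMER, HISAT2, FastQC and fastp were used, with no roles stated. Settings and build were not given in the sources used here. Each row of the deposited peak table gives, per the file headers, a peak's position, gene, region, p-value, adjusted p-value and log2 fold (IP against input). The authors' gene table gives FPKM of the input library, per the file headers. Peak starts count from 0: 3007 peaks start 1 base below their gene's start and 0 at it, so 1 was added. Listed-gene peaks carry their gene's strand.

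Tables were joined by gene ID, and overlaps were counted at 1 shared base or more, from first to last base. Overlap code was tested on simulated intervals. Gene classes came from transcript types in the peak table. Shares carry exact (Clopper-Pearson) 95% intervals, computed with Python 3.11.15, pandas 2.3.3 and scipy 1.17.1. The planned share of sequence motifs under peaks was run for 5 peaks alone.

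The genes and lists were chosen with earlier results of these data known, and the 7 tissue lists after the gene names were seen. Named genes are those with the most peaks, the highest folds among peaks with an adjusted p under 0.001 (all, coding, over no listed gene), the highest listed genes under a peak, and up to 4 per name class. Genes named for the smallest adjusted p, the likest pairs and the tissue lists were added after values were seen. Alternatives were symbol matching, level and fold limits, RefSeq types, overlap limits, midpoints, shorter peaks and 1 peak per gene. The result for 1 gene is not reported here.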

Additional observations from a re-analysis of the deposited data

How the results depend on the processing

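Counting genes as listed only at 1 FPKM or more gave 7795 peaks in 4702 genes. Under both limits, an adjusted p under 0.001 and 2-fold or more, the 5' UTR share was 5.18%. The median log2 fold of peaks with an adjusted p under 0.001 was 2.27. By RefSeq type over matched genes the classes were 27.5% lncRNA, 48.2% coding and 23.3% pseudogene, where the deposited types of the same 550 genes gave 26.9%, 50.0% and 20.2%. The classes were by symbol alone 11.2% lncRNA and 8.72% pseudogene, since clone names carry no class. Overlap on the other strand was 67.3% at 50% of the peak or more, 64.7% with listed genes at 1 FPKM or more and 67.5% by midpoint. Overlap on the same strand was 8.00% with listed genes at 1 FPKM or more and 15.8% among peaks with an adjusted p under 0.001. Peaks over none were 24.0%, 28.4% and 23.9% for the first 3 settings. Facing peaks at 50% or more were 27.4% on the other and 0.625% on the same strand. Chosen after seeing the data, leaving out peaks over 5000 bases gave 10.8% overlap on the same strand and facing peaks of 41.0% and 0.669%, and 1 peak per gene gave 76.5% and 10.1% on the other and same strand. The cause of the other moves was not tested. The other 14 values stayed within their interval or within 1.5 times. Among them, matching genes by ID or symbol kept 1151 peaks in 919 genes. A symbol in the gene table was shared by 354 of the 1273 genes (27.8%), all with symbols taken from clones. No paired analysis was possible because there is 1 library of each kind and no test. Unknown depth and the lack of a second IP limit every fold.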
